A study of Mus musculus with 4 samples.

Results

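The outer dynein arm docking genes described here are Armc4, Ttc25, Ccdc114, Ccdc151, Ccdc63 and Ccdc103. They were chosen by name, and all 6 were found among the 22311 genes of the series. RNA of whole testes was sequenced at postnatal day 24 in 2 Rfx2-/- mutant samples (mutant 1 and mutant 2) and 2 control samples (control 1 and control 2). Rfx2 encodes a transcription factor of the RFX family that is needed for spermatids to form flagella, and the comparison asks which transcripts depend on it. The mutation is a conventional knockout derived from 1 embryonic stem cell clone, in which a neomycin cassette takes the place of exons for the DNA-binding domain, so every cell of the testis carries it. The sample labels name the controls wild type and the strain of all 4 samples DBA, whereas the study's methods describe heterozygous controls and a mixed background, so the 2 sources differ. The study's methods give biological replicates for each genotype and 1 mouse for each control sample, and the p-values measure the spread between these samples.

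Outer dynein arms are the motor complexes that drive most of the force of a beating cilium or sperm flagellum. Each arm is made in the cytoplasm, carried into the axoneme and fixed at regular spacing on the doublet microtubules by a docking complex. CCDC114 and CCDC151 are coiled-coil proteins of this complex, ARMC4 and TTC25 are needed for it to hold the arms, CCDC63 is a relative of CCDC114 used in the sperm tail, and CCDC103 is a microtubule-binding protein needed for arm attachment. Loss of several of these proteins in humans causes primary ciliary dyskinesia.

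The level of a gene is given in FPKM, fragments mapped to a gene scaled by its transcript length and by the depth of the sample, as the authors deposited it. The 95% confidence bounds deposited with each FPKM correspond to 20.0 and 17.2 M fragments in mutant 1 and mutant 2, and to 19.6 and 20.4 M in control 1 and control 2. A gene entered the limma test on log2(FPKM + 1) when 2 or more of the 4 samples reached 1 FPKM, which left 12985 genes. All 6 docking genes passed this filter, each with at least 1 FPKM in every sample. Rfx2 itself was at 36.7 and 39.8 FPKM in mutant 1 and mutant 2 against 123 and 89.4 FPKM in control 1 and control 2 (log2 fold change -1.43, standard error 0.19, limma adjusted p = 0.00617). FPKM covers the whole gene, exons outside the replaced part included.

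Of the 6 docking transcripts, 2 were lower in mutant testes. Armc4 fell 8.44-fold and Ttc25 fell 2.34-fold, whereas no docking gene rose past the threshold of an adjusted p of 0.05. Of all tested genes, 2.52% were lower and 0.308% were higher by the same rule. At an unadjusted p under 0.05 by limma, the same 2 docking genes were lower and 1, Ccdc151, was higher, where 6.68% and 2.01% of all tested genes were. In both Armc4 and Ttc25 each mutant sample lay below both controls, as in 15.2% of all tested genes. Armc4 was among the genes that the study itself picked on these samples, so its fall here is not independent evidence. The study also measured its picked cilia genes by real-time PCR. It reports most of them as lower, and Armc4 is not among its named exceptions. The median log2 fold change was -0.10 over the 6 docking genes and 0.03 over all tested genes. In RNA of a whole testis, fewer cells of a type and less RNA per cell cannot be told apart.

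**Figure D1:**
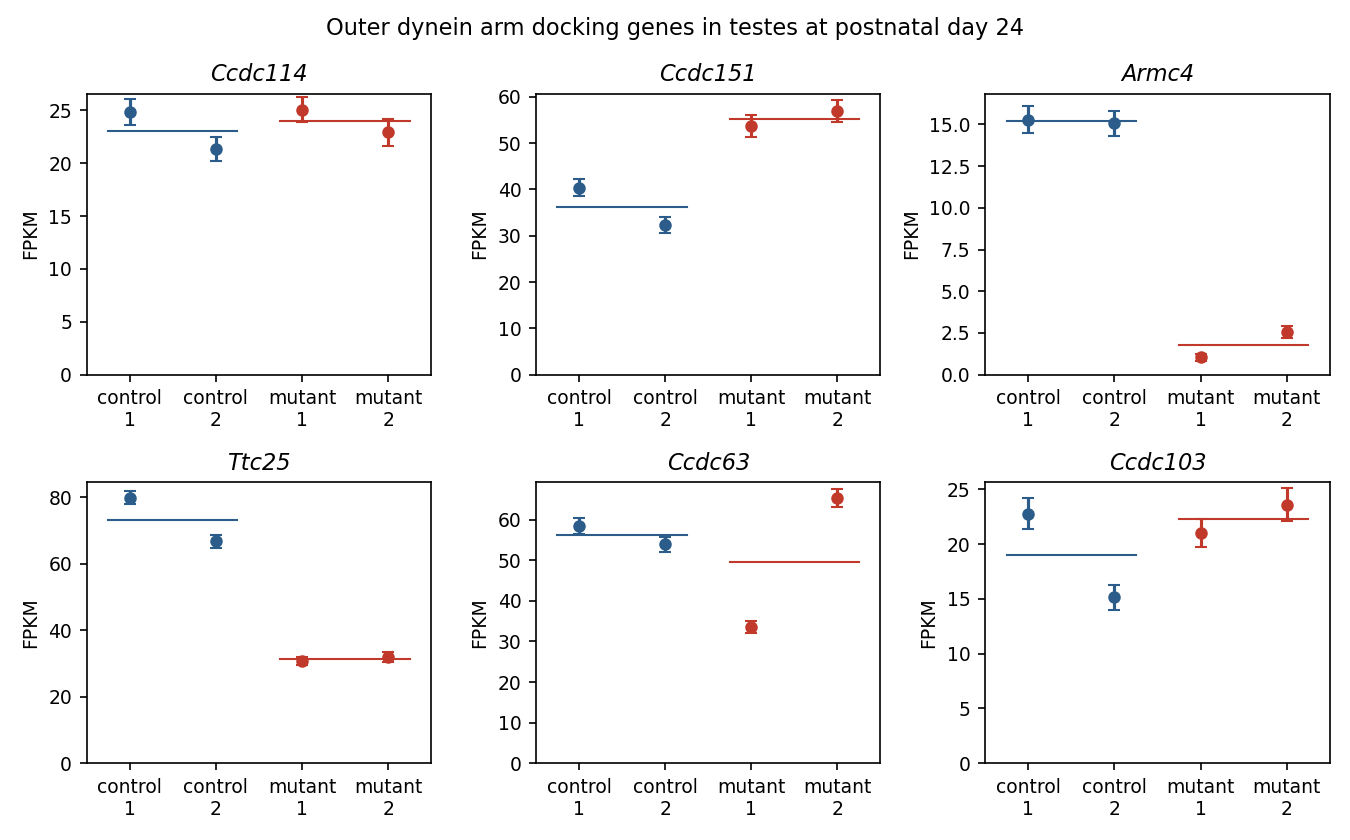
FPKM of each docking gene (vertical axis from 0, a separate scale in each panel) in the 2 control samples (blue) and the 2 mutant samples (red). Points are samples, bars are the deposited 95% confidence bounds of each sample, and horizontal lines are group means. Armc4 and Ttc25 are lower in both mutant samples, Ccdc151 is higher in both, and mutant 1 and mutant 2 lie on opposite sides of the controls for Ccdc63.

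Armc4 encodes an armadillo-repeat protein of the docking complex, and its gene lies on chromosome 18 at 7088231 to 7297899 on the minus strand (NCBIM37, mm9). Its longest coding transcript has 21 exons and a coding length of 3111 bases. Armc4 was at 1.05 FPKM in mutant 1, 2.54 in mutant 2, 15.3 in control 1 and 15.1 in control 2. Both mutant samples lay far below both control samples, which were nearly equal to each other. The mean was 1.80 ± 1.05 FPKM (SD, n = 2) in mutant and 15.2 ± 0.164 FPKM (SD, n = 2) in control samples, so 11.9% of the control level remained. The log2 fold change was -2.58 (standard error 0.29, 95% interval -3.25 to -1.92, limma adjusted p = 0.00222). This placed Armc4 at rank 86 from the most negative log2 fold change among the 12985 tested genes. The deposited bounds, 0.848 to 1.26 FPKM in mutant 1 and 2.19 to 2.89 FPKM in mutant 2, did not overlap, so the low level itself differed 2.41-fold between the mutant samples. These values correspond to about 104 and 214 fragments in mutant 1 and mutant 2 against 1442 and 1505 in control 1 and control 2.

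Ttc25 encodes a tetratricopeptide-repeat protein that recruits the docking complex to the axoneme, and its gene lies on chromosome 11 at 100406921 to 100433882 on the plus strand. Its longest coding transcript has 12 exons and a coding length of 1872 bases. Ttc25 was at 30.7 FPKM in mutant 1, 31.9 in mutant 2, 79.8 in control 1 and 66.6 in control 2. The 2 mutant samples were close together and both lay below the controls. The mean was 31.3 ± 0.869 FPKM (SD, n = 2) in mutant and 73.2 ± 9.34 FPKM (SD, n = 2) in control samples, or 42.8% of the control level. The log2 fold change was -1.19 (standard error 0.17, 95% interval -1.58 to -0.81, limma adjusted p = 0.00717). This call rested on both control samples. The limma adjusted p was 0.125 without control 1 (log2 fold change -1.07) and 0.0519 without control 2 (-1.32). It was 0.0605 after median-ratio scaling of the samples (-1.21), and it ranged from 2.51e-06 to 0.125 over the 15 alternatives.

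Ccdc114 encodes a core coiled-coil subunit of the docking complex. Its gene on chromosome 7, at 53179442 to 53204326 on the plus strand, has a longest coding transcript of 13 exons and 1974 coding bases. Ccdc114 was at 25.1 FPKM in mutant 1, 22.9 in mutant 2, 24.8 in control 1 and 21.4 in control 2, and the groups overlapped. The mean was 24.0 ± 1.52 FPKM (SD, n = 2) in mutant and 23.1 ± 2.44 FPKM (SD, n = 2) in control samples. The log2 fold change was 0.06 (standard error 0.17, limma adjusted p = 1), and its 95% interval ran from -0.34 to 0.45. A change of the size seen in Ttc25 lay outside this interval. Of the 5234 stretches of 50 bases in the protein-coding transcripts of Ccdc114, 25 also occurred in protein-coding transcripts of other genes. No such stretch occurred for the other docking genes. The overlap of Ccdc103 with Fam187a, at 48 bases, is shorter than 50 bases, so this search could not show it. Noncoding transcripts were not searched, among them the lincRNA Gm17536 that overlaps Ccdc103.

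Ccdc151 encodes the second coiled-coil subunit, and its gene lies on chromosome 9 at 21794315 to 21807078 on the minus strand, with 13 exons and 1782 coding bases in the longest coding transcript. Ccdc151 was at 53.6 FPKM in mutant 1, 56.9 in mutant 2, 40.4 in control 1 and 32.3 in control 2. Both mutant samples lay above both control samples. The mean was 55.3 ± 2.31 FPKM (SD, n = 2) in mutant and 36.3 ± 5.76 FPKM (SD, n = 2) in control samples, or 152% of the control level. The log2 fold change was 0.60 (standard error 0.17, 95% interval 0.20 to 1), and it did not pass the adjusted threshold (limma unadjusted p = 0.00911, adjusted p = 0.189). The adjusted p ranged from 0.0792 to 0.944 over the alternatives. Without adjustment, 2.01% of all tested genes were higher at a p under 0.05, and both mutant samples lay above both controls in 16.3% of them.

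Ccdc63, the sperm-tail relative of Ccdc114, lies on chromosome 5 at 122558049 to 122588966 on the minus strand, with 13 exons and 1746 coding bases in the longest coding transcript. Ccdc63 was at 33.6 FPKM in mutant 1, 65.3 in mutant 2, 58.4 in control 1 and 54.0 in control 2. Mutant 1 was the lowest and mutant 2 the highest of the 4 samples, at 59.8% and 116% of the control mean. The mean was 49.5 ± 22.4 FPKM (SD, n = 2) in mutant and 56.2 ± 3.16 FPKM (SD, n = 2) in control samples. On the log2 scale the difference was -0.25 (standard error 0.28, 95% interval -0.91 to 0.40, limma adjusted p = 1). Its direction depended on the mutant sample used, with a log2 fold change of 0.21 without mutant 1 and -0.72 without mutant 2. The latter had a limma adjusted p of 0.0188, with a single mutant sample assumed to vary like the controls, in a range of 0.0188 to 1 over the alternatives. The gene overlaps Myl2, a muscle myosin light chain gene on the opposite strand, over 5433 bases, and Myl2 was at 0 FPKM in 3 samples and 0.0898 FPKM in mutant 2.

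Ccdc103, the arm attachment factor, lies on chromosome 11 at 102742518 to 102746530 on the plus strand, with 5 exons and 711 coding bases in the longest coding transcript. Ccdc103 was at 21.0 FPKM in mutant 1, 23.6 in mutant 2, 22.8 in control 1 and 15.1 in control 2. The groups overlapped, with control 2 the lowest of the 4 samples, and the 2 controls differed 1.51-fold. The mean was 22.3 ± 1.82 FPKM (SD, n = 2) in mutant and 19.0 ± 5.41 FPKM (SD, n = 2) in control samples. This gave a log2 fold change of 0.25 (standard error 0.22, 95% interval -0.26 to 0.76, limma adjusted p = 1), and it was -0.03 without control 2. The whole gene, 4013 bases, lies within the lincRNA gene Gm17536 on the same strand, for which no value was used here. Its last 48 bases also overlap Fam187a on the same strand, which was at 6.24 and 12 FPKM in mutant 1 and mutant 2 and at 6.1 and 4 FPKM in control 1 and control 2, so reads from the shared stretches could count for another gene.

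**Figure D2:**
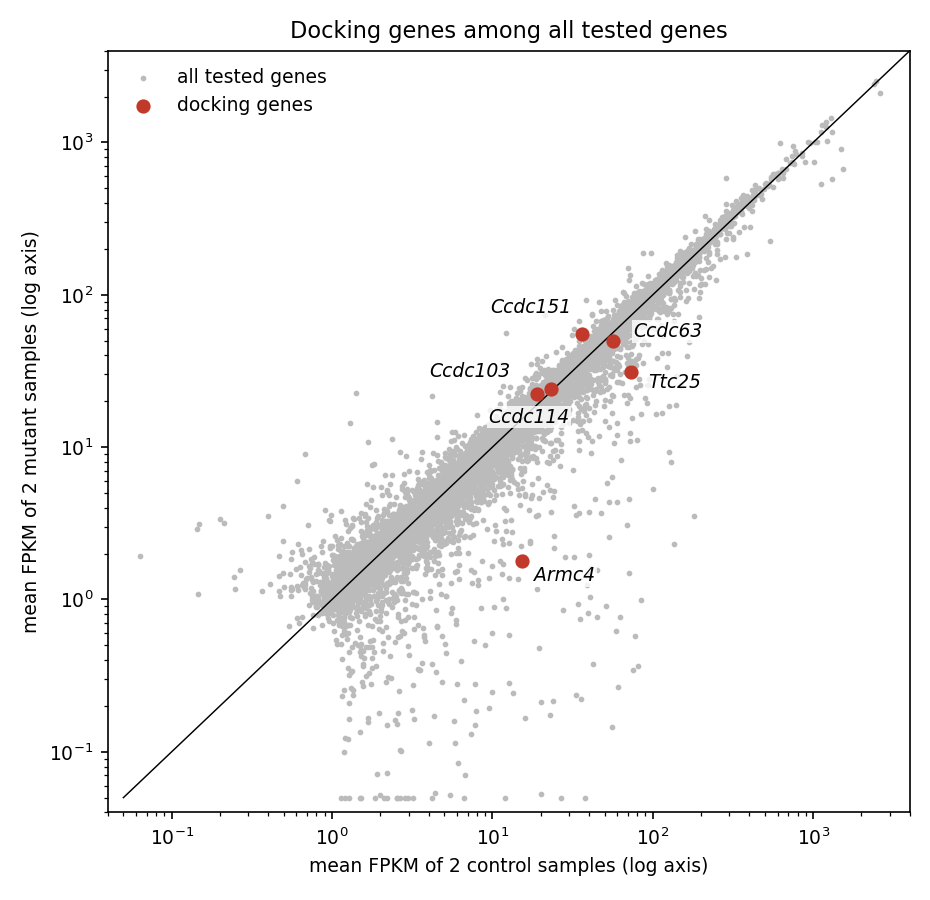
Mean FPKM of the 2 mutant samples against mean FPKM of the 2 control samples for all 12985 tested genes (grey) and the 6 docking genes (red), both axes logarithmic, with means under 0.05 drawn at 0.05. The line marks equal levels. Armc4 lies far below the line at 1.80 against 15.2 FPKM, Ttc25 lies below it at 31.3 against 73.2 FPKM, and the other 4 docking genes lie near or above it, apart from Ccdc63 slightly below.

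The order of the docking transcripts differed between the genotypes. In control samples the mean level fell from Ttc25 (73.2 FPKM) through Ccdc63 (56.2), Ccdc151 (36.3), Ccdc114 (23.1) and Ccdc103 (19.0) to Armc4 (15.2). Neighbours in this order did not overlap between the controls except Ccdc114 with Ccdc103 and Ccdc103 with Armc4. In mutant samples the order was Ccdc151 (55.3 FPKM), Ccdc63 (49.5), Ttc25 (31.3), Ccdc114 (24.0), Ccdc103 (22.3) and Armc4 (1.80), where Ccdc151 overlapped with Ccdc63 and Ccdc114 with Ccdc103. Ttc25 thus moved from the first place to the third and Ccdc151 from the third to the first. Among all tested genes, the mean level of Armc4 moved from percentile 62.5 in controls to 12.3 in mutants, that of Ttc25 from 91.6 to 79.4, and that of Ccdc151 from 81.4 to 88.5.

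Ratios of FPKM between docking genes within a sample do not depend on how samples are scaled to each other. The ratio of Ccdc151 to Ttc25 was 1.75 and 1.78 in mutant 1 and mutant 2 against 0.506 and 0.484 in control 1 and control 2. The ratio of Armc4 to Ccdc114 was 0.0420 and 0.111 in mutant 1 and mutant 2 against 0.616 and 0.704 in control 1 and control 2. Armc4 also fell relative to Ttc25, from ratios of 0.191 and 0.226 in the controls to 0.0343 and 0.0796 in the mutants. The ratios of Ccdc114 to Ttc25 were 0.817 and 0.718 in the mutants against 0.311 and 0.321 in the controls. In each of these pairs the groups did not overlap. Of the 15 pairs, 12 had ratios that separated the groups. Each of the 12 held Armc4, Ttc25 or Ccdc151, so pairs share genes and are not separate results. The share over pairs of all tested genes was not computed. The permutation test used log2 ratios of FPKM + 1, which do depend on how samples are scaled. On these, each of the 12 had an exact permutation p of 0.333 (two-sided, 0.417 after Benjamini-Hochberg adjustment over 15 pairs). An exact permutation p of 0.333 is the smallest that 2 against 2 samples can give.

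The promoters of Ccdc103, Ccdc114 and Ccdc151 were examined for the X-box, the paired site bound by RFX factors, in RefSeq windows from 250 bases before to 50 bases after the transcription start (GRCm38.p6). RefSeq windows matched these 3 of the 6 docking genes, and not Armc4, Ttc25 or Ccdc63. The X-box was searched on both strands with a gap of 0 to 3 bases between its arms. Ccdc103 and Ccdc151 each held 1 match without a mismatch, in both cases on the strand opposite to the gene. Ccdc114 held 1 match with a single mismatch, and Ccdc151 a second match of that kind. The stretches around these matches are shown for the docking genes with a matched window. They are written 5′ to 3′ on the strand of the gene, with the match in capitals.
Ccdc114: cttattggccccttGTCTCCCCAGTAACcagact
Ccdc151, upstream match: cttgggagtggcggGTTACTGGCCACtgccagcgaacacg
Ccdc151, match at the start: ggcggggggaggaaGTTACTTAGCAAC
Ccdc103: agactggtggcgccGTTGCTAGGCAAC
By exact match in NCBIM37 they lie at chr7:53179556-53179589 (plus strand), chr9:21807223-21807262 and chr9:21807069-21807095 (both minus strand) and chr11:102742521-102742547 (plus strand). The match without a mismatch spans positions -3 to 10 from the transcription start in Ccdc103 and -170 to -159 in Ccdc151. The match with 1 mismatch spans positions -15 to -2 in Ccdc114 and -3 to 10 in Ccdc151, and its mismatch falls in the left arm, at position 4 of the arm in Ccdc114 and position 6 in Ccdc151. Ccdc103 also holds the single-arm RFX site GGCAAC within its X-box match. Of the 32851 windows in the table, 1.53% held the X-box without a mismatch and 11.3% with up to 1 mismatch, and 12.5% held GTTGCC or GGCAAC. A match of letters describes the sequence and shows no binding.

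The other genes of the outer arm were taken from lists of attachment and transport partners, motor subunits and preassembly factors. Of 5 partners, 4 were tested, of which 2 were lower and none was higher by limma. Among all tested genes, 2.52% were lower and 0.308% were higher. At an unadjusted p under 0.05, Mns1 and Lrrc56 were higher, as were 2.01% of all tested genes. Ccdc11, which encodes a protein that binds the docking complex and the axoneme, was at 0.753 and 0.488 FPKM in mutant 1 and mutant 2 against 65.7 and 51.9 FPKM in control 1 and control 2 (log2 fold change -5.20, standard error 0.22, limma adjusted p = 2.61e-05). Wdr69, which encodes the adaptor that couples outer arms to transport into the axoneme, was at 6.93 and 4.40 FPKM against 23.4 and 20.4 FPKM in the same order (-1.81, standard error 0.24, limma adjusted p = 0.00510), and the study had picked it on these samples too. Mns1, whose product is needed for the docking complex in sperm tails, was at 313 and 308 FPKM in mutants against 246 and 203 FPKM in controls (log2 fold change 0.47, limma adjusted p = 0.497). Lrrc56, a transport factor of the outer arm, was at 103 and 106 against 71.8 and 57.9 FPKM (log2 fold change 0.69, limma adjusted p = 0.109). Efcab1, the calcium sensor that sits with the docking complex, was under 1 FPKM in every sample and was not tested. It was at 0.0358 and 0.126 FPKM in mutant 1 and mutant 2 against 0.676 and 0.78 FPKM in control 1 and control 2. These low values correspond to about 1 and 3 fragments against 18 and 22 in the same order.

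Among 10 motor subunits of the outer arm, 7 were tested and 1 was lower. This was Dnaic2, an intermediate chain at the base of the arm where it meets the docking complex, which was at 0.286 and 0.160 FPKM in mutant 1 and mutant 2 against 43.1 and 28.4 FPKM in control 1 and control 2 (log2 fold change -4.88, standard error 0.25, limma adjusted p = 4.30e-05). Its partner chain gene Dnaic1 was at 72.1 and 85.0 FPKM in the mutants against 51.4 and 44.1 FPKM in the controls (log2 fold change 0.71, limma adjusted p = 0.0998), values above the controls as for Ccdc151. The other 5 tested subunits ranged from -0.66 to 0.08. Of 14 preassembly factors, which fold and assemble arms in the cytoplasm, 13 were tested and 1 was lower. Pih1d3 was at 2.90 and 2.43 FPKM in mutant 1 and mutant 2 against 7.91 and 7.24 FPKM in control 1 and control 2 (log2 fold change -1.23, standard error 0.21, limma adjusted p = 0.0225), about the size of the change in Ttc25. The log2 fold changes of the 13 ranged from -1.23 to 0.51. No motor subunit or preassembly factor was higher by limma. Among all tested genes, 2.52% were lower and 0.308% were higher. At an unadjusted p under 0.05, 2 of the 7 motor subunits were lower (Dnaic2 and Dnalc4) and 1 was higher (Dnaic1). At that unadjusted p, 6.68% of all tested genes were lower and 2.01% were higher. By the same rule 5 of the 13 preassembly factors were lower (Pih1d3, Zmynd10, Dyx1c1, Pih1d2 and Lrrc6) and 1 was higher (1110004E09Rik). Of these, Dyx1c1 was among the genes that the study picked on these samples and also measured by real-time PCR.

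Another list held genes that fix the inner arms and set the spacing along the axoneme. All 4 of this list were lower, where 2.52% of all tested genes were. Their log2 fold changes were -5.17 for Ccdc164, -2.90 for Ccdc40, -2.82 for Ccdc65 and -1.19 for Ccdc39. The study chose these 4 on the same samples, so their count here is not independent evidence. It also measured them by real-time PCR and reports most cilia genes so measured as lower. None of these 4 is among its named exceptions, and it reports RFX2 at the Ccdc65 promoter by ChIP-PCR. Ttc25 and Ccdc39 had the same log2 fold change to 2 decimals.

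**Figure D3:**
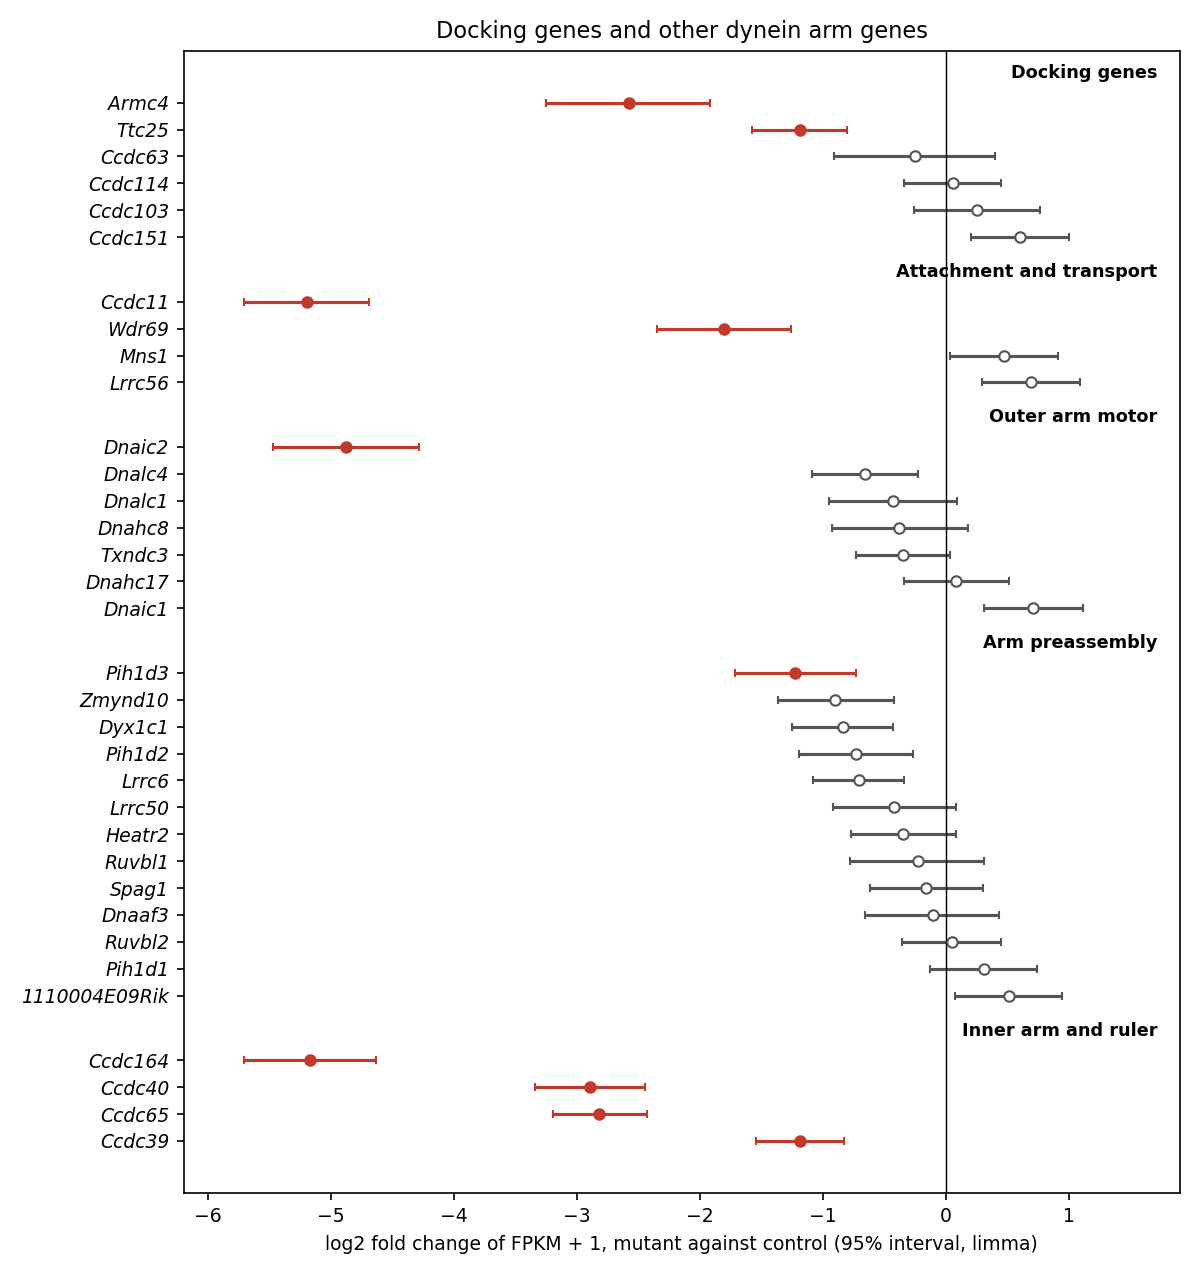
Log2 fold change of FPKM + 1 in mutant against control samples (horizontal axis), with 95% intervals from limma, for the tested docking genes and the 4 other lists of dynein arm genes, listed on the vertical axis. Filled red points passed an adjusted p of 0.05 and open points did not. Armc4 and Ttc25 lie among the genes that fell, and every interval of Ccdc63, Ccdc114 and Ccdc103 spans 0.

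Among all tested genes, those most like each docking gene were found by the Euclidean distance of log2(FPKM + 1) over the 4 samples. For Armc4 the nearest were Lrriq4 (distance 0.560), at 1.88 and 2.79 FPKM in mutant 1 and mutant 2 and at 18.2 and 16.2 FPKM in control 1 and control 2, and Fam131a (0.587). The nearest to Ttc25 were Ccdc96 (0.184), at 31.7 and 35.7 FPKM in the mutants and 77.7 and 63.0 FPKM in the controls, and Ccdc39 (0.245). For Ccdc63 they were Acsl1 (0.179), at 33.9 and 63.5 FPKM in mutant 1 and mutant 2 and at 55.7 and 48.2 FPKM in control 1 and control 2, and 1700113H08Rik (0.180). Acsl1 and Ccdc63 both had a low value in mutant 1 alone, which follows from choosing Acsl1 by this distance. Ccdc114 was nearest to Incenp (0.0549) and Rab8a (0.0701), Ccdc151 to Pigyl (0.226) and Katnal2 (0.299), and Ccdc103 to Ahdc1 (0.197) and Ldoc1l (0.225). Between docking genes the smallest distance was that of Ccdc103 and Ccdc114 (0.547), and the docking gene nearest to Armc4 was Ccdc103 at 4.45.

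The 2 mutant samples differed in spermatid markers. The summed FPKM of 10 elongating spermatid markers was 1523 in mutant 1 and 7081 in mutant 2 against 8321 and 5688 in control 1 and control 2, and each of the 10 was lower in mutant 1 than in mutant 2. The 6 round spermatid markers summed to 345 and 610 FPKM in mutant 1 and mutant 2 against 504 and 436 FPKM in the controls, and all 6 were lower in mutant 1 than in mutant 2. No marker of either list passed the adjusted threshold between genotypes by limma. Ccdc63 showed the same split between mutant 1 and mutant 2. It was at -0.72 and 0.21 in that order against the control mean on the log2(FPKM + 1) scale. Round spermatid markers had medians of -0.52 and 0.25, and elongating spermatid markers of -1.26 and 0.22. Their part in the values of Ccdc63 was not tested. Ttc25 was at -1.22 and -1.17 in mutant 1 and mutant 2, and Ccdc151 at 0.56 and 0.64, so both were nearly equal in the 2 mutant samples. Armc4 was at -2.98 in mutant 1 and -2.19 in mutant 2, and the part of the spermatid markers in its values was not tested.

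**Figure D4:**
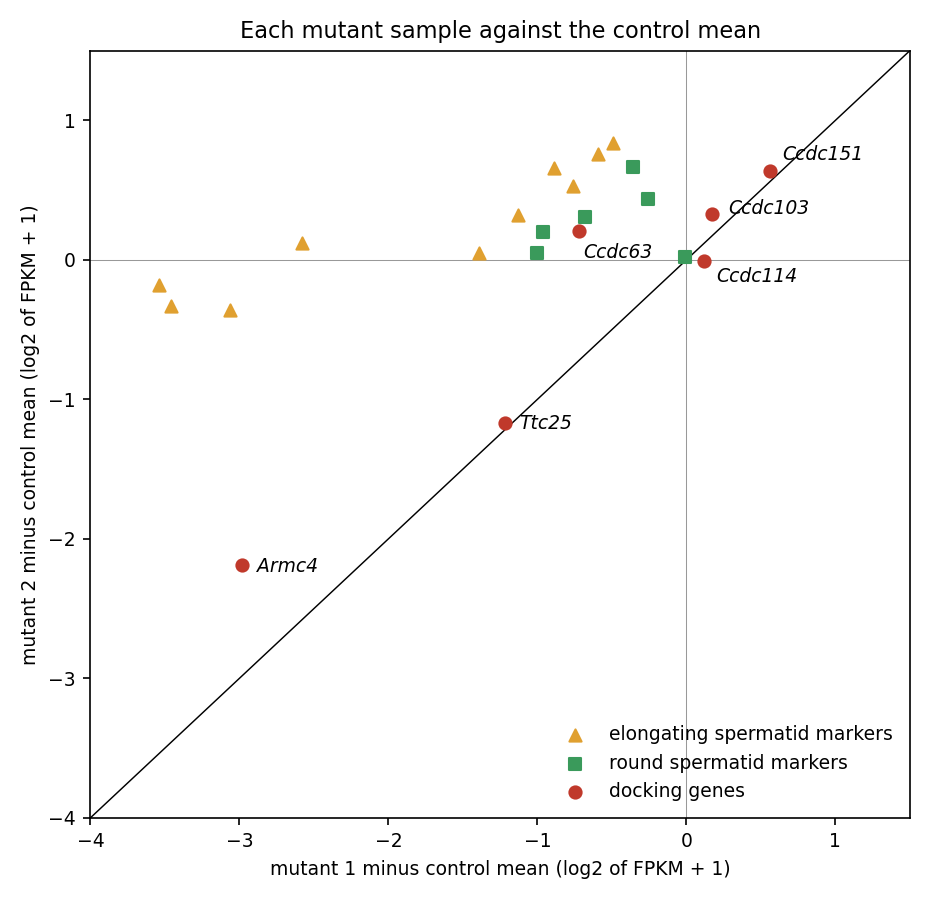
Difference from the control mean on the log2(FPKM + 1) scale in mutant 1 (horizontal axis) and mutant 2 (vertical axis) for the 6 docking genes (red circles), 6 round spermatid markers (green squares) and 10 elongating spermatid markers (orange triangles). The diagonal marks equal differences. Ttc25, Ccdc151, Ccdc103 and Ccdc114 lie near the diagonal, Armc4 lies above it at -2.98 and -2.19, and Ccdc63 lies with the spermatid markers at -0.72 and 0.21.

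None of the 37 tested markers of the other cell types listed here passed the adjusted threshold by limma. At an unadjusted p under 0.05 there were 2, both lower and both multiciliated cell markers, where 6.68% of all tested genes were lower. In the order mutant 1, mutant 2, control 1 and control 2, their summed FPKM was 616, 536, 525 and 552 for spermatocytes, 105, 83.9, 71.9 and 107 for spermatogonia, and 727, 628, 491 and 651 for Sertoli cells. Leydig cell markers summed to 397, 204, 338 and 102, peritubular myoid markers to 71.0, 70.6, 61.3 and 89.3, and macrophage markers to 34.7, 22.3, 26.7 and 38.1. Multiciliated cells, which also use outer dynein arms, line the efferent ducts beside the testis. Of their 8 markers, 7 were found and summed to 36.6, 55.0, 90.1 and 63.8 FPKM in that order, and Mcidas, Gmnc and Myb were at most at 0.124 FPKM in any sample. Foxj1, at 19.6, 27.3, 46.2 and 25.4 FPKM, and Ccdc67, at 15.6, 26.4, 41.9 and 36.3 FPKM, made up most of this sum. Foxj1 overlapped between the groups, and the study reports it as unchanged in mutant mice by real-time PCR. The multiciliated sum, mostly Foxj1 and Ccdc67, was lower in both mutant samples, as for Armc4 and Ttc25. The markers near 0 differed in direction. Mean FPKM in mutants against controls was 0.0593 against 0.0152 for Mcidas and 0.0982 against 0.0521 for Myb, both higher. For Gmnc it was 0.00929 against 0.0216, which was lower. The part of multiciliated cells in the values of Armc4 and Ttc25 was not tested.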

How the data were processed

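RNA-seq of testes from 2 mutant and 2 control samples was analysed. Reads had been aligned with TopHat2 2.0.6 to mm9, and the authors deposited Cufflinks FPKM per gene and sample, with 95% confidence bounds. Strand-specific counting is not given in the sources used here. The study's gene lists came from Cuffdiff, which could not be repeated from FPKM. Entries sharing a symbol were summed. Genes at or above 1 FPKM in at least 2 of 4 samples were tested on log2(FPKM + 1) with limma 3.58.1 in R 4.3.3 (eBayes following the trend of variance with level, two-sided, Benjamini-Hochberg adjustment over 12985 genes, threshold 0.05). The pseudocount of 1 shrinks the fold changes of low genes. The fit was tested on simulated data. Fragment numbers were taken from the bounds as 2 standard errors of a Poisson count and are estimates, and intervals on them cover counting error only. The members, lists and tests were chosen with earlier results of these data known. Named genes are Rfx2, the members, genes of the fixed lists, and for each member the 2 nearest genes by Euclidean distance. Genes of the lists that did not pass the test are named in part, chosen after their values were seen. Positions come from GENCODE vM1 (NCBIM37), and promoters from RefSeq. A comparison of the proteins was not made here. Tables were made with python 3.11.15, pandas 2.3.3, numpy 2.4.6 and scipy 1.17.1. The alternatives were other pseudocounts, filters, scalings and eBayes settings, the highest entry per symbol in place of the sum, a replicate block and each sample left out.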

Additional observations from a re-analysis of the deposited data

How the results depend on the processing

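Of 15 alternatives, 11 used all 4 samples. Armc4 stayed lower past the threshold in all 15 (log2 fold change -3.20 to -2.19, limma adjusted p from 4.98e-18 to 0.0487), and no docking gene was higher in any. The number of docking genes lower in mutants was 1 under median-ratio scaling and 1 to 3 when a sample was left out (2 without mutant 1, 3 without mutant 2, 1 without either control), and the cause was not tested. Among all genes, 199 were lower and 17 higher with no filter, 202 and 17 with a filter at 5 FPKM, 216 and 16 under median-ratio scaling, and 67 were higher with robust eBayes. Leaving out a sample gave 79 to 944 genes lower and 10 to 138 higher (432 and 138 without mutant 1, 944 and 84 without mutant 2, 79 and 17 without control 1, 93 and 10 without control 2), and the members' median then ranged from -0.30 to 0.10. With a sample left out, the log2 fold change ranged from -0.05 to 0.16 for Ccdc114 (-0.01 without mutant 1, -0.05 without control 2), from -0.72 to 0.21 for Ccdc63 (0.21 without mutant 1) and from -0.03 to 0.53 for Ccdc103 (-0.03 without control 2). The limma adjusted p of Rfx2 was 0.0607 with no filter, 0.0730 under median-ratio scaling and 0.0710 without control 1. A sample left alone in its group is assumed to vary like the others.

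Samples share replicate numbers only by label, and deviations of same-numbered samples correlated at -0.154 over 12985 genes. A replicate block from the labels gave 2 docking genes lower and 0 higher, with 525 genes lower and 70 higher among all tested, and changed no call of a docking gene. Crossing the numbers, chosen after seeing the data, gave 2 docking genes lower, and 266 genes lower and 28 higher among all tested. With the block, and without either mutant sample, limma took 1 common spread trend for all genes, and its p-values are too small to rely on.

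With 2 samples per group, changes of Ccdc114, Ccdc103 and Ccdc63 within their 95% intervals were not detectable.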

Other observations

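The heavy chains of the outer arm, the motors that the docking complex holds in place, differed widely in level between paralogues. Dnahc8 was at 95.4 and 147 FPKM in mutant 1 and mutant 2 and at 138 and 172 FPKM in control 1 and control 2, with the lowest value in mutant 1 as for Ccdc63 (log2 fold change -0.38, limma adjusted p = 0.989). Dnahc17 had group means of 36.3 ± 2.12 FPKM (SD, n = 2) in mutant and 34.5 ± 6.38 FPKM (SD, n = 2) in control samples. Dnahc5, Dnahc9 and Dnahc11, the heavy chains known from motile cilia, did not reach the filter and were not tested. Their control means were 0.134, 0.362 and 0.154 FPKM, and their mutant means were higher, at 0.176, 0.839 and 0.511 FPKM. The highest single value was 1.07 FPKM, for Dnahc9 in mutant 2.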
